A study of Mus musculus with 30 samples.

Results

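Mest and 9 further imprinted genes, Igf2, H19, Dlk1, Meg3, Peg3, Peg10, Plagl1, Grb10 and Cdkn1c, were read in bulk RNA of mouse tumours treated with interleukin-12 molecules. Each gene was found by its symbol in the table of counts, which held 24552 distinct symbols, and each had 1 entry. All 10 genes were among the 15482 genes that passed the filter on low counts. Mest was chosen by measured values of these tumours, namely its low level after mXTX301, the masked mouse interleukin-12 surrogate, at both days. Its drug-against-vehicle values are therefore given as a description, with no test. The other 9 genes were listed as imprinted genes with earlier results of these tumours known.

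Tumours came from MC38, a mouse colon carcinoma line, injected as 0.5 M cells under the skin of the right flank of female C57BL/6J mice aged 10 weeks. Mice with tumours of 200 to 300 mm3 received a single intravenous dose of mXTX301 (0.39 mg/kg), of an interleukin-12 molecule without the mask that served as positive control (0.03 mg/kg), or of vehicle. The tumours were taken at day 4 or day 7, with 5 mice in each of 6 groups and 30 libraries in all. Each library was made from homogenised tumour, so it holds RNA of the cancer cells, of host cells and of any skin or muscle taken with the tumour. Library totals lay between 48.3 and 85.2 M counts, and p-values measure the spread between mice.

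The tumour label was checked against marker lists. Epithelial and colon markers were near their floor, with a summed level of 2.87 to 18.5 CPM (counts per M counts of the TMM-scaled library) in a library, 8 of 12 passing the filter and the colon factor gene Cdx2 at 0 counts in all 30 libraries. Fibroblast markers summed to between 2251 and 9754 CPM. Skeletal muscle markers summed to between 7.93 and 1053 CPM and skin keratin markers to between 6.07 and 1033 CPM, and 12 libraries stood above the widest gap in skin marker level (3 in each of the unmasked and vehicle groups at day 7, 2 in mXTX301 at day 7, 2 in unmasked at day 4 and 1 in each of the others). T cell markers rose with both drugs, 11 of 13 at day 4 and 13 of 13 at day 7 for mXTX301, and 10 and 13 of 13 for the unmasked control. Interferon-gamma response genes rose in 20 of 21 at day 4 and 21 of 21 at day 7 with either drug. Of all genes, 32.2% and 48.4% were called at day 4 and day 7 of mXTX301, and 22.4% and 45% at those of the unmasked control. In bulk RNA, fewer cells of a type and less RNA per cell cannot be told apart.

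Imprinted genes are transcribed mainly from the copy inherited from one parent, and the choice is held by DNA methylation laid down in the germ line at imprinting control regions. Many of them set fetal and placental growth, are high in the embryo and are turned down in most adult tissues, with stromal, muscle and endocrine cells among the places where they persist. Igf2, Mest, Peg3, Peg10, Plagl1 and Dlk1 are expressed mainly from the paternal copy, and H19, Meg3, Cdkn1c and, in most tissues, Grb10 from the maternal copy. These mice are of 1 inbred strain, so parental copies were not told apart and imprinting itself was not measured.

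Sequences at starts of Mest, Dlk1, Meg3, Plagl1 and Grb10 are shown to give their CG content, since methylated CG pairs carry imprints. They come from the RefSeq table of GRCm38.p6, the mm10 build, cover 250 bases before and 50 after a start, and have CG pairs in capitals. The Mest start lies at chr6:30737800-30738099 on the plus strand with 17 CG pairs, and a further Mest start upstream, at chr6:30733256-30733555 on the plus strand, has 8. Dlk1 at chr12:109452573-109452872 (plus strand, 9 CG pairs) and Meg3 at chr12:109540746-109541045 (plus strand, 13 CG pairs) are neighbours in 1 imprinted domain. Plagl1 at chr10:13090582-13090881 (plus strand) has 26 CG pairs and Grb10 at chr11:12037371-12037670 (minus strand, printed in the direction of transcription) has 45.
Mest: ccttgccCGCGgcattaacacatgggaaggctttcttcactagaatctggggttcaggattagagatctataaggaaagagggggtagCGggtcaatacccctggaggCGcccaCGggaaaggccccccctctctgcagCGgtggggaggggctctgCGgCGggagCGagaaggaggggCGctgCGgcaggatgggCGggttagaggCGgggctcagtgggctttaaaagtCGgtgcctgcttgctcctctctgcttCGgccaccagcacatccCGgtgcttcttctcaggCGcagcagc
Mest upstream start: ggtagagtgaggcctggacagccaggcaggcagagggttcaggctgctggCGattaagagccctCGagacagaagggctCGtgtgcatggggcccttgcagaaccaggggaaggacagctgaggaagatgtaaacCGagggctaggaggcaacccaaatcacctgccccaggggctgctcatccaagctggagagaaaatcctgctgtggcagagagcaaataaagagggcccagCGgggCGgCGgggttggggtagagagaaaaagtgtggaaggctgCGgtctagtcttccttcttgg
Dlk1: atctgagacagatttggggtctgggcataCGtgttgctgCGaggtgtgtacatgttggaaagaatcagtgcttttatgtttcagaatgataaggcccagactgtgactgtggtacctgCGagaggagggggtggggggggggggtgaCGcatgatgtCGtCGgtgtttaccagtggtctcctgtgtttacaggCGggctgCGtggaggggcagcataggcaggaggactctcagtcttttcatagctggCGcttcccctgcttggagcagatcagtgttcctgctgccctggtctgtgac
Meg3: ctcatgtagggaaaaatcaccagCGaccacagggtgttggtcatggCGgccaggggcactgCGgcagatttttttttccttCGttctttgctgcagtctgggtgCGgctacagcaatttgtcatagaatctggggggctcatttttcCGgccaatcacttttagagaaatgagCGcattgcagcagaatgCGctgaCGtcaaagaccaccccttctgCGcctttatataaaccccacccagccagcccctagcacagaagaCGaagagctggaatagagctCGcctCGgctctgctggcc
Plagl1: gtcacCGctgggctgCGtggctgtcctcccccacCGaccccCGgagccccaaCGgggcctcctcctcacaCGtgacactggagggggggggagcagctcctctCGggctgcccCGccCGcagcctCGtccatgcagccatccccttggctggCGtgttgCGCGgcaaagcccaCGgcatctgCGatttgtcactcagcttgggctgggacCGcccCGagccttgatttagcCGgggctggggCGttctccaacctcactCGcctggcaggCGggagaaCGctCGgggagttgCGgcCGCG
Grb10: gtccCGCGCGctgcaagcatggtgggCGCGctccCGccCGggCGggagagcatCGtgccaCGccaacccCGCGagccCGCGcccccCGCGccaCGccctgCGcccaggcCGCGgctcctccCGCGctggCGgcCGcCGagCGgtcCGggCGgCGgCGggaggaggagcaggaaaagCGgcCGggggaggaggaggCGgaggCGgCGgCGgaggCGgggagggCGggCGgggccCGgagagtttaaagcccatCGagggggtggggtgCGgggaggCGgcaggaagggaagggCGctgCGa

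The median CG count was 7 over 32851 promoters of 300 bases in the table, and the 6 windows printed lay above it. Among windows not printed, those of Igf2 had 2, 7, 14 and 24 CG pairs and that of Peg3 had 13. The table also holds a further start of Meg3, at chr12:109545148-109545447 on the plus strand with 1 CG pair, below that median, and a further start of Grb10, at chr11:12027922-12028221 on the minus strand with 9. The letters TGCCGC, the motif that the imprint-protecting protein ZFP57 binds when methylated, were searched on both strands. They stood 2 times in the Mest window, 0 times in the upstream Mest window and in the Dlk1 window, and 1 time each in the Meg3, Plagl1 and Grb10 windows. Of all 32851 promoters, 11.6% held the motif. Counts per gene do not separate the starts of Mest.

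Mest also hosts miR-335 in an intron, at chr6:30741314-30741336 for the 5p arm and chr6:30741354-30741375 for the 3p arm, both on the plus strand. The mature sequences are shown because the host transcript differed so widely between groups, with the seed (bases 2 to 8) in capitals. Mature miRNAs were not measured in these polyadenylated RNA libraries.
mmu-miR-335-5p: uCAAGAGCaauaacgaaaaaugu
mmu-miR-335-3p: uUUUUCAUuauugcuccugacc

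Mest, which encodes a membrane protein of the alpha/beta hydrolase fold found in mesoderm and growing adipose tissue (gene 17294; chromosome 6, 30723547 to 30748465, plus strand, mm10), was low in all 20 drug-treated tumours. At day 4 it had 5.53, 2.81, 4.11, 2.72 and 1.27 CPM in mXTX301 tumours, against 17.9, 21.7, 23.1, 18.9 and 21.7 CPM in vehicle tumours. Unmasked-control tumours had 2.03, 1.09, 1.35, 2.40 and 1.92 CPM at day 4. At neither drug did any library reach the lowest vehicle library.

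At day 7 Mest had 5.61, 3.39, 6.52, 5.03 and 3.22 CPM in mXTX301 tumours, against 26.2, 37.2, 22.6, 19.96 and 19.5 CPM in vehicle tumours. Unmasked-control tumours had 2.74, 4.38, 6.99, 4.52 and 6.18 CPM at day 7. The drug and vehicle groups were again fully apart, with vehicle replicate 2 the highest of all libraries. On the log2 scale the difference from vehicle was -2.65 (SE 0.31) for mXTX301 and -3.56 (SE 0.32) for the unmasked control at day 4. At day 7 it was -2.40 (SE 0.30) for mXTX301 and -2.34 (SE 0.30) for the unmasked control. These correspond to 6.29-fold lower Mest after mXTX301 and 11.8-fold lower Mest after the unmasked control at day 4, and to 5.28-fold and 5.06-fold lower at day 7 for the drugs in the same order. Both drugs were set against the same vehicle libraries. Groups did not overlap in 18.6% of all genes for mXTX301 and 13.8% for the unmasked control at day 4, and in 30.8% and 25.3% at day 7, so a gap between groups was common and nothing is read from that of Mest, which was chosen for it.

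**Figure D1:**
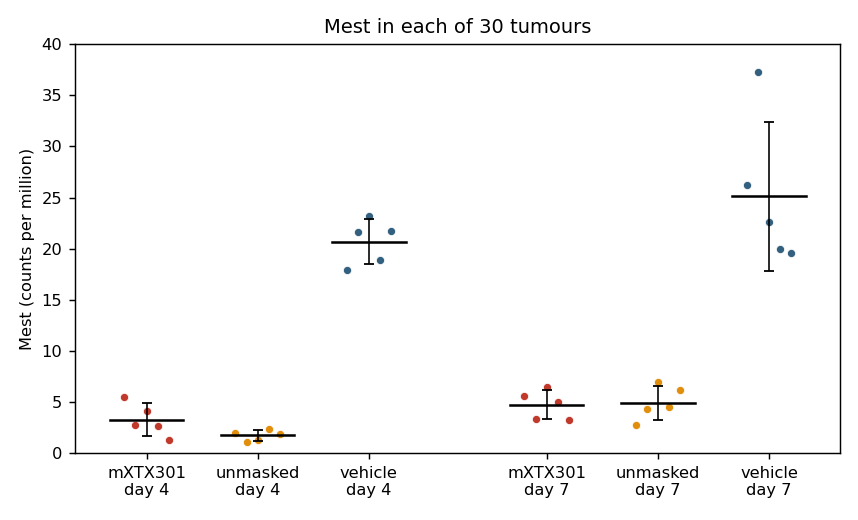
Mest level in CPM (y axis) in each of 30 tumours, by treatment and day (x axis). Points are tumours, horizontal lines group means and error bars 1 SD (n = 5); drug-treated tumours lie between 1.09 and 6.99 CPM and vehicle tumours between 17.9 and 37.2 CPM.

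The order of the group means of Mest was vehicle at day 7 (25.1 ± 7.28 CPM), vehicle at day 4 (20.7 ± 2.18), unmasked control at day 7 (4.96 ± 1.66), mXTX301 at day 7 (4.75 ± 1.43), mXTX301 at day 4 (3.29 ± 1.60) and unmasked control at day 4 (1.76 ± 0.53; SD, n = 5 each). Between neighbours in this order the libraries overlapped, except at the step between the vehicle and the drug groups. The choice of Mest used the mXTX301 and vehicle libraries, so a test of its group means is given only between days of the unmasked control. The permutation tests of Mest given further on used deviations from group means over all 30 libraries, those of the choice among them. With edgeR's quasi-likelihood test adjusted over all genes, Mest was higher at day 7 than at day 4 of the unmasked control, by 1.50 on the log2 scale (interval 0.89 to 2.12, adjusted p = 0.00199), and all 5 day 7 libraries lay above all 5 day 4 libraries. As a description, the log2 difference of day 7 from day 4 was 0.53 (SE 0.29) in mXTX301 tumours and 0.28 (SE 0.28) in vehicle tumours. Between the drugs, mXTX301 minus the unmasked control was 0.91 (SE 0.30) at day 4 and -0.06 (SE 0.29) at day 7, at doses that differed, also with no test. The rise of Mest in unmasked tumours was not called once the 12 skin-rich libraries were left out (1.28, adjusted p = 0.319), which left 2 day 7 libraries. This was the only 1 of 21 alternatives that lost the call. Skeletal muscle markers in unmasked tumours summed to between 178 and 823 CPM at day 7, against 8.08 to 240 CPM at day 4. The call of Mest held with the muscle level as a term in the fit. Whether muscle in the samples lies behind the rise was not tested.

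The gene Copg2, a coat protein subunit gene, is read from the opposite strand and shares 912 exonic bases with Mest. Its reads cannot be told from those of Mest there if strand was not used in counting, which is not stated. The same limit holds for Cdkn1c, with 625 of its 2039 exonic bases shared with Gm44732 on the opposite strand. Meg3 shares 1228 of 18089 with Gm26906. Copg2 had a mean of 78.4 CPM in mXTX301 tumours and 73.7 CPM in vehicle tumours at day 4, and 79.5 and 74.9 CPM in the same groups at day 7. Unmasked-control tumours had 82.8 CPM at day 4 and 70.2 CPM at day 7. No drug comparison with vehicle was called for Copg2, with adjusted p between 0.0636 and 0.314.

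The other 9 imprinted genes did not follow Mest as a group. At day 4 of mXTX301 0 of 9 passed the test, where 32.2% of all genes passed, and 0 of the 9 had an unadjusted p under 0.05, against 6448 of all 15482 genes. At day 7 of mXTX301 4 of 9 were higher and 0 lower, where 48.4% of all genes were called in either direction. The unmasked control gave 1 lower gene of 9 at day 4, where 22.4% of genes were called, and 2 higher and 1 lower at day 7, where 45% were. Each of these counts, as a share of the 9, lies below the share for all genes. Igf2, Dlk1, Peg3, Plagl1 and Cdkn1c had low counts, averaging 0.280 to 1.04 CPM in vehicle tumours at day 4. Their intervals were wide, so fewer calls are not read as a weaker response. The median log2 difference over the 9 genes was -0.02 and 0.03 for mXTX301 at day 4 and day 7, and -0.72 and 0.64 for the unmasked control, beside medians over all genes between -0.01 and 0.02.

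**Figure D2:**
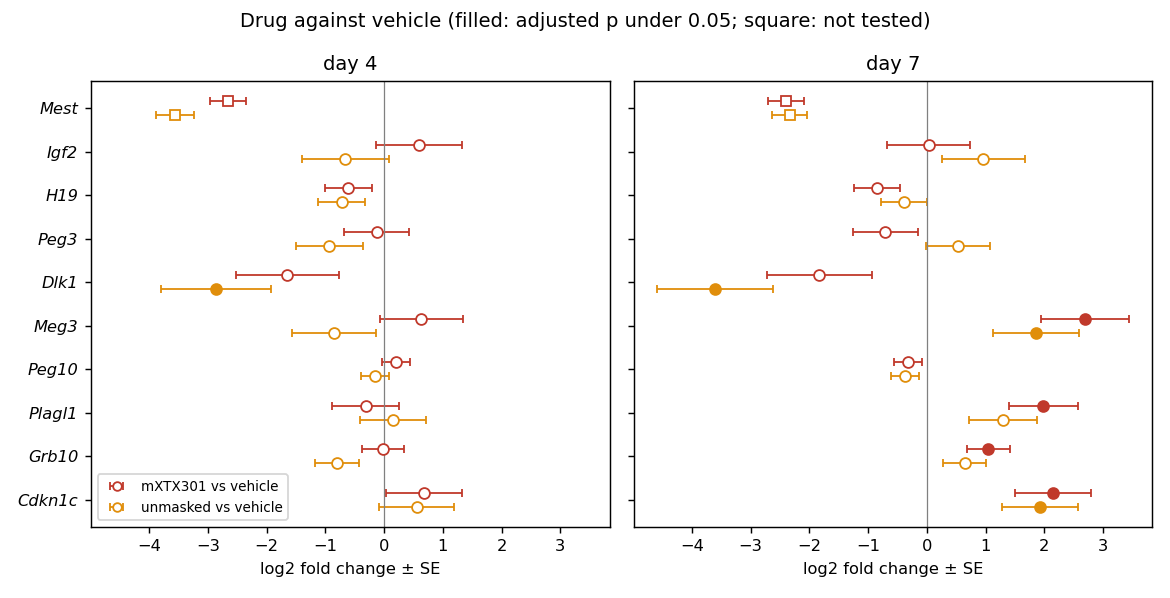
Log2 fold change with SE (x axis) of each imprinted gene (y axis) for mXTX301 and the unmasked control against vehicle, at day 4 (left) and day 7 (right). Filled circles passed an adjusted p of 0.05, squares mark Mest, which was not tested; Mest is at -2.34 or lower in all 4 comparisons, and Meg3, Plagl1, Grb10 and Cdkn1c are filled at day 7 of mXTX301.

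Igf2 and H19 lie side by side on chromosome 7 and share enhancers, with Igf2 encoding a growth factor for fetal tissue (gene 16002; 142650766 to 142666816, minus strand) and H19 a maternal long noncoding RNA (gene 14955; 142575529 to 142578143, minus strand) that contains miR-675. Neither passed in a drug comparison with vehicle in the fit of all 30 libraries, and for H19 this depended on the setting. H19 averaged 24.0 ± 13.5 CPM in mXTX301 tumours against 36.7 ± 7.62 CPM in vehicle tumours at day 4, and 27.4 ± 16.7 against 49.5 ± 18.8 CPM at day 7 (SD, n = 5 each). The log2 difference of H19 was -0.61 (adjusted p = 0.256) and -0.85 (adjusted p = 0.0785) for the 2 days of mXTX301, and -0.72 (adjusted p = 0.196) and -0.39 (adjusted p = 0.436) for those of the unmasked control. H19 at day 7 of mXTX301 was called lower in 8 of 21 alternatives, among them limma-voom, the fit without mXTX301 replicate 1 or 3 or vehicle replicate 5, and the fit without the skin-rich libraries (-1.78, adjusted p = 0.00614), and stood at 0.09 (adjusted p = 0.921) with the fibroblast level as a term. At day 4 it was called lower without the skin-rich libraries (-1.07, adjusted p = 0.0342), and at day 7 of the unmasked control with the muscle level as a term (-0.92, adjusted p = 0.0215). Igf2 was a low gene, at 0.0359 to 2.62 CPM over all libraries, from 3 to 174 counts.

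Between days, Igf2 moved in unmasked tumours. It had 1.27, 1.57, 1.57, 0.891 and 2.62 CPM at day 7, against 0.372, 0.0359, 0.414, 0.253 and 0.282 CPM at day 4, with no overlap. The rise was 2.55 on the log2 scale (interval 0.99 to 4.11; edgeR adjusted p = 0.0164). Peg3, the paternally expressed zinc finger gene of chromosome 7 (gene 18616; 6703892 to 6730431, minus strand), did the same, with 1.15, 2.48, 2.02, 1.58 and 2.93 CPM at day 7 against 0.614, 0.156, 0.252, 0.679 and 0.475 CPM at day 4. Its rise was 2.23 (interval 1.04 to 3.41, adjusted p = 0.00768), again without overlap. With Mest and Grb10, which rose by 1.60 (adjusted p = 0.00409), 4 of 10 genes were higher and 0 lower at day 7 of the unmasked control, where 25.9% of all genes were called and 13.2% did not overlap. None of the 4 was called without the skin-rich libraries, where 0 genes of the table were called. Igf2 and Peg3 kept the call in all other alternatives, the muscle term among them, and Grb10 also lost it with the fibroblast level as a term.

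Mest, Igf2 and H19 were also correlated within groups. Over the deviations of 30 libraries from their group means, Igf2 and H19 had r = 0.798, Mest and H19 0.712, Mest and Igf2 0.602, and Mest and Peg3 0.565; these r values are descriptions of genes measured in the same libraries. Each deviation was also set against marker lists, 90 relations in all, with permutation within groups. With skeletal muscle markers, H19 had r = 0.664 (rho 0.531; permutation p = 0.00272, adjusted 0.012), Igf2 0.587 (rho 0.515; p = 0.00688, adjusted 0.0258) and Mest 0.575 (rho 0.521; p = 0.00785, adjusted 0.0283). Without the 2 libraries farthest from the median muscle level the r was 0.567 for H19, 0.490 for Igf2 and 0.602 for Mest. Peg10 also passed with muscle markers (r = 0.530, rho 0.504; permutation p = 0.0129, adjusted 0.0416; r = 0.443 without 2 libraries), and Peg3 had r = 0.565 (adjusted permutation p = 0.0668) and rho 0.571 (adjusted 0.0392), with r = 0.439 without 2 libraries. By rho the adjusted permutation p was 0.0459 for H19, 0.0505 for Igf2, 0.0421 for Mest and 0.0505 for Peg10. Muscle was not the only such list. With skin markers Peg3 had r = 0.576 (adjusted permutation p = 0.0142) and rho 0.581 (adjusted 0.013). Mest had r = 0.471 (adjusted 0.0561) and rho 0.545 (adjusted 0.0271) with skin markers. For adipocyte markers Peg3 had r = 0.517 (adjusted 0.0583) and rho 0.589 (adjusted 0.0207). H19 and Igf2 did not pass with the skin or the adipocyte list. Over all alternatives, which include a fit with the muscle level as a term, the Mest difference from vehicle lay between -2.93 and -2.46 for mXTX301 at day 4 and between -2.58 and -1.84 at day 7.

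Dlk1 and Meg3 are neighbours on chromosome 12. Dlk1 (gene 13386; 109452823 to 109463336, plus strand) encodes a membrane protein related to Notch ligands and expressed from the paternal copy, and Meg3 (gene 17263; 109541001 to 109571726, plus strand) is a maternal long noncoding RNA. At day 7 of the unmasked control Dlk1 fell and Meg3 rose.

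Dlk1 was a very low gene, at 0 to 2.35 CPM and 0 to 131 counts. At day 4 it had 0.130, 0.144, 0.270, 0.0947 and 0.0704 CPM in unmasked tumours, against 2.35, 1.83, 0.643, 0.111 and 0.279 CPM in vehicle tumours. The fall was 2.86 on the log2 scale (-2.86, interval -4.77 to -0.96; edgeR adjusted p = 0.0265), and vehicle replicate 4 lay inside the range of the unmasked libraries. At day 7 unmasked tumours had 0.0835, 0.0304, 0.0600, 0.151 and 0 CPM, against 0.989, 0.561, 2.04, 0.341 and 0.0900 CPM in vehicle tumours, a difference of -3.60 (interval -5.63 to -1.58, adjusted p = 0.00417). Vehicle replicate 5 lay inside the range of the unmasked libraries. In the library at 0 counts, a level of up to 0.0451 CPM is allowed by 3 counts. mXTX301 tumours had 0.0619, 0.589, 0.263, 0.354 and 0.383 CPM at day 4 (difference from vehicle -1.65, adjusted p = 0.157) and 0, 0.261, 0.0310, 0.128 and 0.711 CPM at day 7 (-1.83, adjusted p = 0.0911). The day 4 call was lost with limma-voom (adjusted p = 0.120) and without unmasked replicate 1, 2, 4 or 5 or vehicle replicate 1 or 2 (adjusted p 0.0537 to 0.0834), and the day 7 call without the skin-rich libraries (-2.49, adjusted p = 0.114). Within groups Dlk1 ran against skin markers (r = -0.623, adjusted permutation p = 0.00702, and rho -0.566, adjusted 0.0129). With macrophage markers it had r = 0.485 (adjusted permutation p = 0.0352) and rho 0.428 (adjusted 0.0787).

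Meg3 stood higher at day 7 with mXTX301, at 11.1, 23.2, 12.6, 31.0 and 55.3 CPM, against 1.66, 0.931, 8.96, 1.46 and 7.71 CPM in vehicle tumours. All mXTX301 libraries lay above all vehicle libraries. The rise was 2.69 on the log2 scale, or 6.44-fold (interval 1.14 to 4.23, adjusted p = 0.00480). In unmasked tumours Meg3 had 5.44, 22.9, 10.3, 23.0 and 13.2 CPM at day 7 and was 3.62-fold higher than vehicle (log2 1.86, adjusted p = 0.0408), with overlap. This call was lost in 10 of 21 alternatives, among them those without unmasked replicate 2, 4 or 5 and those without vehicle replicate 1, 2 or 4. At day 4 Meg3 was not called, at 15.5 ± 7.43 CPM in mXTX301, 5.49 ± 6.58 in unmasked and 10.0 ± 5.92 in vehicle tumours (SD, n = 5 each). The change of the effect between days was 2.05 for mXTX301 (adjusted p = 0.206) and 2.71 for the unmasked control (adjusted p = 0.0970), so the drug effects were not shown to differ between days.

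The Meg3 neighbours Rian and Mirg, noncoding RNA genes of the same maternal transcription unit, moved with it at day 7 of mXTX301. Mirg had 0.588 ± 0.293 CPM against 0.104 ± 0.0745 CPM in vehicle tumours (SD, n = 5; log2 2.48, adjusted p = 0.00301) and did not overlap. Rian had 11.8 ± 8.99 against 3.30 ± 2.47 CPM (log2 1.84, adjusted p = 0.0146) and did overlap. Vehicle replicate 3 stood at 7.46 CPM of Rian, above mXTX301 replicate 1 at 4.37 CPM. Rtl1, a paternal retrotransposon-derived gene of the domain, did not pass (log2 1.05, adjusted p = 0.206). In the unmasked control at day 7, Rian (1.00, adjusted p = 0.174), Mirg (1.31, adjusted p = 0.103) and Rtl1 (0.79, adjusted p = 0.355) did not pass.

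Grb10, Cdkn1c and Plagl1 were all higher at day 7 of mXTX301. Grb10 encodes an adaptor that dampens insulin and insulin-like growth factor receptor signalling (gene 14783; chromosome 11, 11930508 to 12038683, minus strand). It had 7.65, 10.1, 6.97, 10.3 and 25.2 CPM in mXTX301 tumours, against 3.76, 5.20, 9.24, 4.71 and 6.19 CPM in vehicle tumours, with vehicle replicate 3 inside the drug range. The rise was 1.05 on the log2 scale (interval 0.30 to 1.80, adjusted p = 0.0199).

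Cdkn1c encodes p57Kip2, an inhibitor of cyclin-dependent kinases (gene 12577; chromosome 7, 143458339 to 143461050, minus strand). It had 0.882, 1.36, 0.651, 1.07 and 3.33 CPM in mXTX301 tumours, against 0.334, 0.137, 0.917, 0.0974 and 0.150 CPM in vehicle tumours, and vehicle replicate 3 again overlapped. The rise was 2.15 (adjusted p = 0.00764) with mXTX301 and 1.92 (adjusted p = 0.0166) with the unmasked control, which had 0.468, 1.34, 0.585, 1.73 and 2.09 CPM. Without unmasked replicate 5 the unmasked difference was 1.63 and did not pass. The unmasked call was also lost without the skin-rich libraries and with the fibroblast level as a term.

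Plagl1 encodes a zinc finger transcription factor that restrains cell division (gene 22634; chromosome 10, 13060504 to 13131694, plus strand). It had 0.882, 1.93, 0.806, 1.19 and 4.08 CPM in mXTX301 tumours at day 7, against 0.226, 0.274, 0.995, 0.276 and 0.480 CPM in vehicle tumours. Vehicle replicate 3 overlapped, and the rise was 1.98 (interval 0.78 to 3.18, adjusted p = 0.00679). With the unmasked control the difference was 1.30 (adjusted p = 0.0680) for Plagl1 and 0.64 (adjusted p = 0.152) for Grb10. mXTX301 replicate 5 was the highest library at day 7 in Meg3, Grb10, Cdkn1c and Plagl1, and without it the Grb10 difference was 0.58 (adjusted p = 0.173). The call of Grb10 was also lost without vehicle replicate 1 (0.90, adjusted p = 0.0610) or 4 (0.96, adjusted p = 0.0528).

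**Figure D3:**
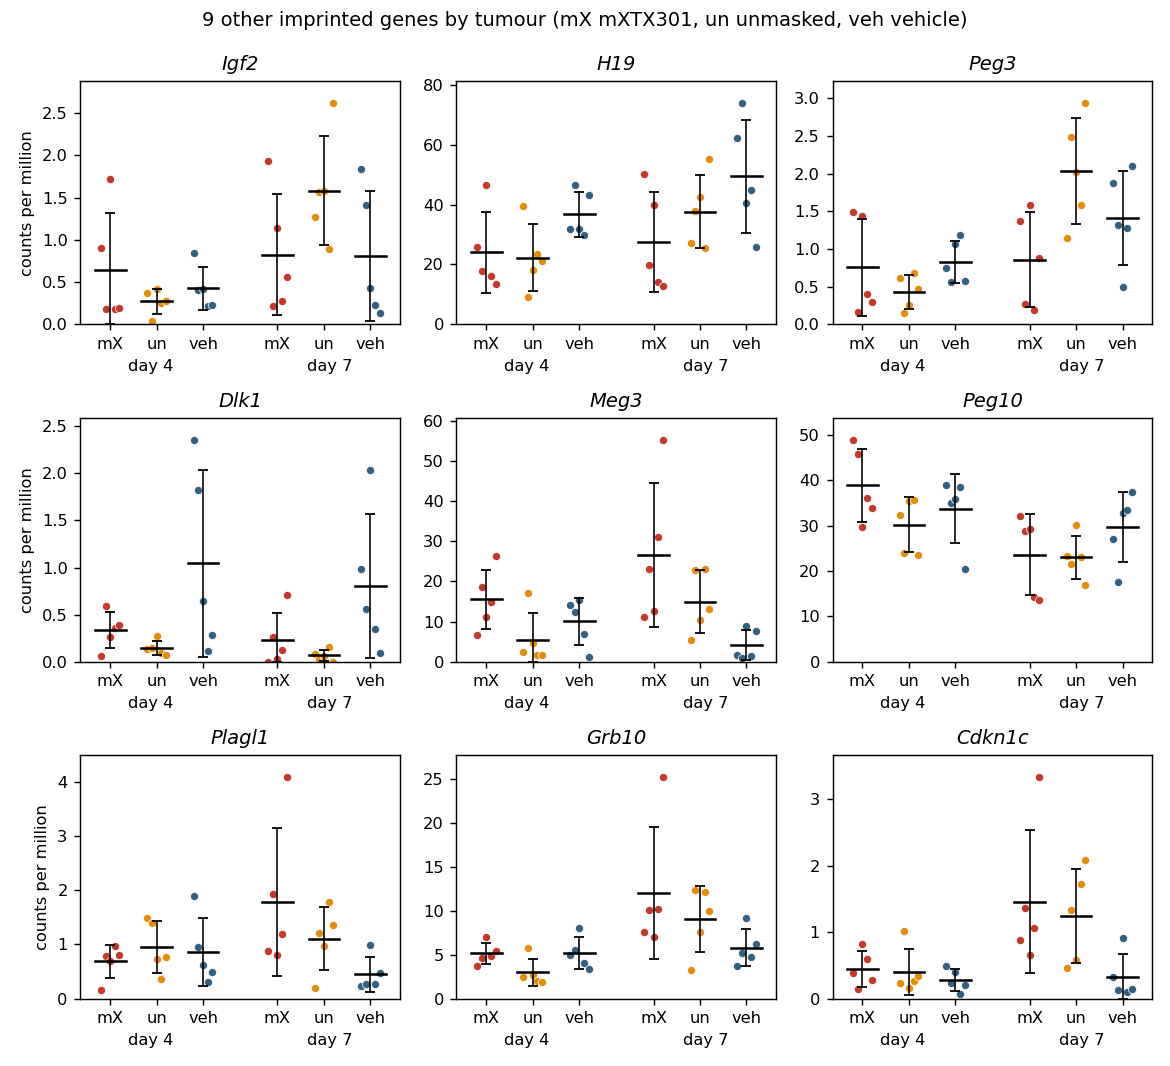
Level in CPM (y axes, each from 0) of the 9 other imprinted genes in each of 30 tumours, by treatment and day (x axes). Points are tumours, lines group means and error bars 1 SD (n = 5), cut at 0 where the mean minus SD is below it; Meg3 runs from 11.1 to 55.3 CPM in mXTX301 tumours at day 7 and up to 8.96 CPM in vehicle tumours.

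Fibroblast markers moved with these 4 genes. Of 14 markers, 11 were higher at day 7 of mXTX301 (median log2 difference 1.45) and 5 at day 7 of the unmasked control (median 0.88), against 1 at day 4 of each drug. At day 7, 48.4% of all genes were called with mXTX301 and 45% with the unmasked control, at day 4 32.2% and 22.4%. The list summed to between 4678 and 9754 CPM in mXTX301 tumours at day 7, 3520 and 6253 in unmasked tumours and 2331 and 5331 in vehicle tumours. Over deviations from the group means of the 30 libraries, the fibroblast level had r = 0.917 with Grb10, 0.841 with Meg3, 0.719 with Plagl1 and 0.678 with Cdkn1c. The rho values were 0.924, 0.860, 0.655 and 0.601 for the 4 genes in that order. The permutation p was 1e-05 for Grb10 and for Meg3, the smallest the permutations can give, 0.00018 for Plagl1 and 0.00024 for Cdkn1c, and the adjusted p over 90 relations was 0.00045, 0.00045, 0.00231 and 0.0027 in that order. Leaving out the 2 libraries farthest from the median fibroblast level gave 0.887, 0.839, 0.615 and 0.607. How many of all genes followed the fibroblast level as closely was not measured, so the relation is not read as particular to these 4 genes. H19 ran the other way (r = -0.549, rho -0.527; permutation p = 0.00633, adjusted 0.0248).

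Among themselves, Meg3 and Grb10 had r = 0.792 within groups, Plagl1 and Grb10 0.761, Grb10 and Cdkn1c 0.702 and Meg3 and Plagl1 0.683. The fibroblast level as a term in the fit was an alternative chosen after seeing the data. With it, none of the 4 rises with mXTX301 at day 7 was left. Over all genes the calls in that comparison went from 7493 without the term to 2371 with it. Lost calls were therefore common in that fit and not particular to these 4 genes. Meg3 was at 0.03 (adjusted p = 0.972), Plagl1 at 0.09 (adjusted p = 0.938) and Cdkn1c at 0.15 (adjusted p = 0.892) in that fit, and Grb10 was lower at -0.63 (adjusted p = 0.0443). Mest, in the same fit, stood at -1.84 for mXTX301 and -1.86 for the unmasked control against vehicle at day 7, compared with -2.40 and -2.34 without the term. Whether more fibroblasts or more RNA per cell lies behind these values was not tested. Other lists went with the same 4 genes within groups. Endothelial markers had r between 0.507 (Meg3) and 0.801 (Grb10), with rho 0.519 to 0.754, permutation p adjusted over the 90 relations of 0.0018 to 0.00872 for r, and r of 0.434 to 0.657 without the 2 farthest libraries. Macrophage markers had r between 0.427 (Meg3) and 0.722 (Grb10), with rho 0.460 to 0.685, adjusted permutation p of 0.0009 to 0.0497, and r of 0.330 to 0.640 without 2 libraries. Pericyte and smooth muscle markers had r between 0.443 (Meg3) and 0.715 (Grb10), with rho 0.446 to 0.651, adjusted permutation p of 0.0027 to 0.0559, of which that of Plagl1 missed 0.05, and r of 0.440 to 0.638 without 2 libraries. Cell cycle genes ran against all 4, with r between -0.708 (Grb10) and -0.572 (Cdkn1c), rho -0.661 to -0.564, adjusted permutation p of 0.0018 to 0.00872, and r of -0.618 to -0.462 without 2 libraries.

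**Figure D4:**
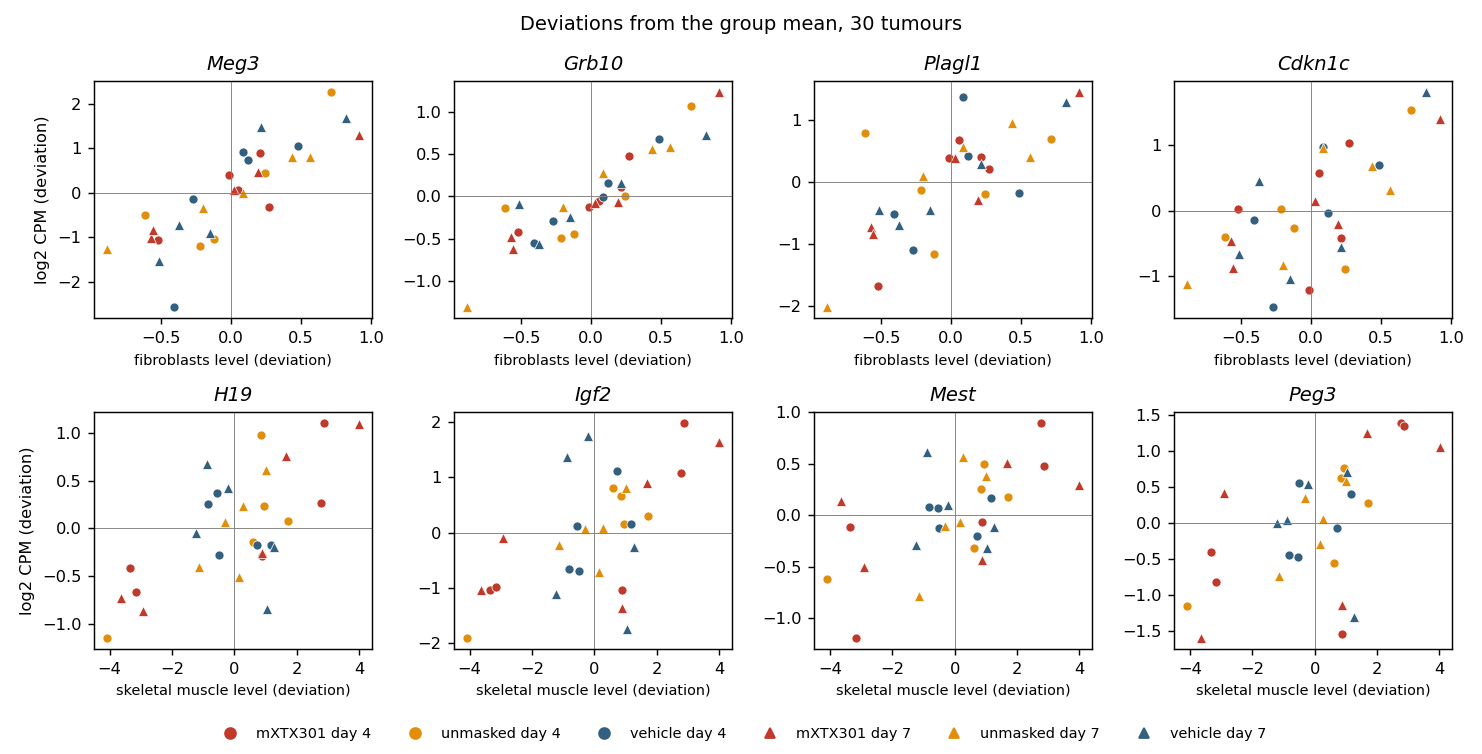
Deviation of a gene's log2 CPM from its group mean (y axes) against the deviation of a marker list's mean log2 CPM from its group mean (x axes), for fibroblast markers (upper row) and skeletal muscle markers (lower row). Each point is 1 of 30 tumours, coloured by treatment, with circles for day 4 and triangles for day 7; Grb10 rises along fibroblast level with r = 0.917 and H19 along muscle level with r = 0.664.

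Peg10, a retrotransposon-derived gene needed for placental growth (gene 170676; chromosome 6, 4747306 to 4760517, plus strand), was near even between treatments. It averaged 38.9 ± 8.14 CPM in mXTX301, 30.2 ± 6.04 in unmasked and 33.8 ± 7.68 in vehicle tumours at day 4, and 23.6 ± 8.92, 23.0 ± 4.79 and 29.7 ± 7.72 CPM in the same groups at day 7 (SD, n = 5 each). No drug comparison was called, with log2 differences between -0.37 and 0.20. Within mXTX301 tumours it was lower at day 7 than at day 4, by 0.72 on the log2 scale (-0.72, interval -1.20 to -0.23, adjusted p = 0.0433), while Grb10 rose by 1.22 (adjusted p = 0.0302). These were 2 of the 9 genes other than Mest, where 14.5% of all genes were, and each call was lost in 8 of 21 alternatives. Peg10 ran against T cell markers within groups (r = -0.553, rho -0.624; permutation p = 0.00092, adjusted 0.00753) and against macrophage markers (r = -0.589, rho -0.665; permutation p = 0.00169, adjusted 0.00872); without the 2 farthest libraries r was -0.601 and -0.648.

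The masked and the unmasked molecule, given at 0.39 and 0.03 mg/kg, were not called apart for any of the 9 genes other than Mest, where 0% of all genes were called at day 4 and 0% at day 7. At an unadjusted p under 0.05 edgeR had 2 of the 9 at day 4 (Meg3 and Grb10, at log2 differences of 1.49 and 0.78) and 1 at day 7 (Peg3, at -1.24), beside 2092 and 898 of 15482 genes. Intervals were wide: for Dlk1 at day 7 the difference was 1.78 (interval -0.22 to 3.77) and for Meg3 0.83 (interval -0.63 to 2.28). Peg10 had the narrowest of the 9 at day 7, -0.45 to 0.53. In vehicle tumours 0 of the 9 were called between days and 0 had an unadjusted p under 0.05, where 0.0388% of genes were called and 2932 had such a p. How far a drug's effect moved between day 4 and day 7 was called for 0 of 9 genes with either drug, where 4.99% of genes were for mXTX301 and 5.15% for the unmasked control, and 2 of the 9 had an unadjusted p under 0.05 in each: Plagl1 and Grb10 with mXTX301, Meg3 and Grb10 with the unmasked control. Over all 15482 genes 3854 and 4016 had such a p for mXTX301 and the unmasked control.

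Per length of exon, H19 was highest of the 10 genes in every group, at 9.77 CPM per kilobase in mXTX301, 9.06 in unmasked and 14.9 in vehicle tumours at day 4, and at 11.1, 15.3 and 20.1 in the same groups at day 7. Mest came next in vehicle tumours, at 5.24 CPM per kilobase at day 4 and 6.36 at day 7, ahead of Peg10 at 5.06 and 4.45. In drug-treated tumours Peg10 came before Mest, with 5.84 against 0.834 CPM per kilobase for mXTX301 at day 4. The lowest levels in vehicle tumours at day 7 were those of Dlk1 (0.142 CPM per kilobase), Igf2 (0.141), Peg3 (0.106) and Plagl1 (0.0576).

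Among 53 tested genes of a list of 72 other imprinted genes (70 in the table), 6 were higher and 7 lower at day 4 of mXTX301, and 16 and 9 at day 7, where 32.2% and 48.4% of all genes were called at the 2 days. With the unmasked control 6 were higher and 7 lower at day 4, and 14 and 11 at day 7, where 22.4% and 45% of all genes were called. The medians were 0.08 and 0.25 for mXTX301 at the 2 days and -0.01 and 0.18 for the unmasked control. Ampd3, an AMP deaminase gene, had the smallest p in each comparison: 26.8 CPM in mXTX301 against 8.81 CPM in vehicle tumours at day 4 (log2 1.61, adjusted p = 4.36e-06) and 53.5 against 9.21 CPM at day 7 (log2 2.54, adjusted p = 1.09e-09). With the unmasked control Ampd3 rose by 1.70 at day 4 and 2.33 at day 7. Igf2r, the maternal gene of the receptor that takes up and clears IGF2, rose to 113 CPM with mXTX301 and 103 with the unmasked control, against 74.9 CPM in vehicle tumours at day 4 (log2 0.60, adjusted p = 8.59e-05, and 0.45, adjusted p = 0.00179).

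Tnfrsf23, a decoy death receptor gene, rose at day 7 with mXTX301 (log2 0.91, adjusted p = 0.000155) and with the unmasked control (0.85, adjusted p = 0.000357). Genes that fell at day 7 included Nap1l4, a histone chaperone gene (-0.33 and -0.31 at day 7 for mXTX301 and the unmasked control), Mcts2 (-0.40 and -0.34) and the cholesterol enzyme gene Dhcr7 (-0.84 and -0.80). Peg12 fell by 0.80 with mXTX301 at day 7 (-0.80, adjusted p = 3.28e-05). At day 4 of the unmasked control Dio3, the thyroid-hormone-inactivating deiodinase gene of the Dlk1-Meg3 domain, fell to 0.223 CPM against 1.13 CPM in vehicle tumours (log2 -2.32, adjusted p = 0.00223), and Tfpi2, a protease inhibitor gene, to 2.10 against 5.01 CPM (-1.25, adjusted p = 0.00287).

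Genes on a list for the making and upkeep of methylation imprints were called in both directions. At day 7 of mXTX301 3 of 12 were higher and 6 lower, where 48.4% of all genes were called, with Hells (-0.48), Uhrf1 (-0.39), Ctcf (-0.35), Dnmt3b (-0.43) and Trim28 (-0.26) lower and Dnmt3l higher at 0.95 (adjusted p = 0.00539). At day 4 it was 2 higher, Zfp445 at 0.43 and the methyltransferase gene Dnmt3a at 0.40, and 1 lower, Trim28 at -0.16, where 32.2% of all genes were called. The unmasked control had 0 higher and 2 lower at day 4, where 22.4% of all genes were called, and 2 higher and 5 lower at day 7, where 45% were. The list's median log2 difference was -0.02 and -0.21 for the 2 days of mXTX301 and -0.07 and -0.04 for those of the unmasked control, beside medians over all genes between -0.01 and 0.02. Hells and Uhrf1 are also expressed with DNA replication, and 18 of 18 cell cycle genes were lower at day 7 of mXTX301. Whether fewer dividing cells lie behind the lower values on this list was not tested.

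In the insulin-like growth factor axis, the ligand Igf1 rose at day 7 and the binding protein gene Igfbp3 fell at both days. Igf1 libraries overlapped those of vehicle with both drugs, which Igfbp3 libraries did not at either day. Igf1 had 11.3 CPM in mXTX301 and 7.28 CPM in unmasked tumours, against 1.90 CPM in vehicle tumours at day 7 (log2 2.57, adjusted p = 0.00212, and 1.94, adjusted p = 0.0153). Igfbp3, which binds IGFs in the blood and tissue fluid, had 58.5 CPM in mXTX301 and 45.3 in unmasked tumours against 111 CPM in vehicle tumours at day 4 (-0.92, adjusted p = 7.48e-05, and -1.29, adjusted p = 1.42e-06). It had 50.8 and 42.3 against 125 CPM at day 7 (-1.30 and -1.56). The receptor substrate gene Irs2 rose by 1.60 and 2.10 at day 4 and day 7 of mXTX301 and by 1.47 and 2.31 with the unmasked control. Of 18 tested genes of the axis, 3 were higher and 1 lower at day 4 of mXTX301 and 7 and 2 at day 7, where 32.2% and 48.4% of all genes were called. The unmasked control had 3 higher and 1 lower at day 4 and 6 and 1 at day 7, where 22.4% and 45% were. The medians were 0.26 at both days of mXTX301, and 0.18 and 0.20 for the 2 days of the unmasked control. The insulin receptor gene Insr (0.41 at day 4 of mXTX301, adjusted p = 0.00437) and the IGF-binding protein genes Igfbp5 (1.91) and Igfbp7 (1.08) at day 7 of mXTX301 were among the higher genes.

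Genes with a pattern most like Mest were ranked by Pearson's r of log2 CPM over the 30 libraries, among 12180 genes averaging 1 CPM or more. This r follows the treatment, which Mest was chosen for, and carries no test. The highest were Armc5 (0.895), Pagr1a (0.892), Marcksl1 (0.888), Afap1l1 (0.874) and Angel2 (0.874), and the lowest were Nt5dc3 (-0.913), Irf1 (-0.911), Igtp (-0.900), Rmdn3 (-0.887) and Gbp2 (-0.886). Irf1, Igtp and Gbp2 are genes induced by interferon-gamma. Within groups, by r of deviations from the group mean, the highest were Zfp51 (0.760), Wtap (0.735), Zfp54 (0.732), Acyp2 (0.727) and H19 (0.712), so H19 was the only one of the 9 other imprinted genes among them. Over the 30 libraries as they stood, r with Mest was 0.684 for H19, 0.464 for Peg3, 0.379 for Dlk1 and 0.234 for Igf2, and the other 5 genes lay between -0.341 and 0.120.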

How the data were processed

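RNA of 30 tumours was sequenced from polyadenylated RNA. The deposited table holds raw read counts per gene, and a second deposited table holds log2 CPM made by the authors. STAR 2.7.10a, HTSeq 0.11.1, FastQC 0.11.9, cutadapt, edgeR 3.34.0, R 4.1.0 and the mm10 build are named per the submitters' processing notes. Their roles and settings, strand among them, are not given in the sources used here. The log2 table holds 14877 genes and differed from log2 CPM recomputed from the counts by at most 5e-05, within a tolerance of 1e-04. Of 24557 entries 5 with repeated symbols were dropped.

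The counts were fitted with edgeR 4.0.16 in R 4.3.3 (TMM factors, filterByExpr, robust quasi-likelihood F test, 1 mean for each of 6 groups, Benjamini-Hochberg over 15482 genes, threshold 0.05). CPM uses TMM factors and log2 CPM a prior count of 2. Intervals are at 95%. Library totals were 48.3 to 85.2 M counts, and intervals for 0 counts cover counting error only. Correlations used deviations from group means and 100000 permutations within groups. The fits were tested on simulated data. DESeq2 1.42.0, limma-voom 3.58.1, other size factors, no filter, terms for marker levels and left-out libraries were alternatives.

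The members and lists were chosen with earlier results of these data known. All 10 members are named, with up to 6 genes by smallest p among those called in each further list and comparison. Replicate numbers did not pair libraries: the mean r of same-numbered libraries was 0.0465 and the lowest -0.687.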

Additional observations from a re-analysis of the deposited data

Results flagged for a closer look

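In 4 of 60 sets of 5 libraries (10 genes in 6 groups) 1 library lay far from the other 4, where chance flags about 1 in 20 sets. Igf2 stood at 0.0359 CPM in unmasked-control replicate 2 at day 4, with the other 4 between 0.253 and 0.414 CPM. Peg10 stood at 20.3 CPM in vehicle replicate 5 at day 4, with the others between 35.1 and 39.0 CPM. Plagl1 was low in mXTX301 replicate 1 at day 4, at 0.165 CPM with the others between 0.702 and 0.979 CPM, and in unmasked-control replicate 1 at day 7, at 0.200 CPM with the others between 0.974 and 1.78 CPM.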

How the results depend on the processing

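Counts of genes called moved by over 1.5 times as follows. The fibroblast level as a term was chosen after seeing the data. With it, mXTX301 against vehicle had 2 genes at day 4 (0 without the term) and 2 at day 7 (4 without). The unmasked control had 3 at day 4 (1 without), and mXTX301 at day 7 against day 4 had 0 (2 without). Over all genes 4392, 2371, 3906 and 68 were called with this term in that order, against 4982, 7493, 3465 and 2242 without it. Without the skin-rich libraries the counts were 1 for mXTX301 against vehicle at day 4, 0 for the unmasked control at day 7 (3 with them), 0 for the unmasked control between days (4 with them) and 1 for the change of the mXTX301 effect. The calls over all genes were 3530, 2415, 0 and 1280 in this order, against 4982, 6973, 4009 and 772 with those libraries. The muscle term, also chosen after seeing the data, gave 6 for the unmasked control at day 7 and 1 for the change of its effect. There 6833 and 711 of all genes were called, against 6973 and 798 without the term. Limma-voom gave 0 for the unmasked control at day 4 and 1 for mXTX301 between days, no filter gave 1 there, DESeq2 gave 1 for each change of effect, and a fit of only the groups compared gave 1 for the unmasked control at day 7. Over all genes limma-voom called 3243 and 1758 (3465 and 2242 in the main fit), and no filter 1899. DESeq2 called 1486 and 1762 (772 and 798 in the main fit), and the fit of only the groups compared 6242 (6973 in the main fit). Leaving out 1 library gave 0 to 0, 3 to 6, 0 to 1 and 1 to 5 genes for mXTX301 at day 4 and 7 and the unmasked control at day 4 and 7, 0 to 3 and 4 to 6 between days of mXTX301 and the unmasked control, and 0 to 1 and 0 to 2 for the changes of effect. Where this moved the count between days of mXTX301, 533 to 1660 of all genes were called (2242 in the main fit). Where it moved that of the unmasked control at day 4, 2884 to 3113 were (3465 in the main fit). Directions turned with the fibroblast term for Grb10 at day 7 of mXTX301 (-0.63) and of the unmasked control (-0.61) and for Meg3 at day 7 of the unmasked control (-0.0198). The causes were not tested.

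The replicate numbers share only a number. With the replicate block 5 genes were called for mXTX301 at day 7 in place of 4, H19 being added at -0.97 (adjusted p = 0.0434), and every other count was as without the block. Of 30 libraries 9 correlated best with one of their own number. Low counts limit Dlk1, Igf2, Peg3, Plagl1 and Cdkn1c, which had under 10 counts in at least 1 library.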
